A study of Mus musculus with 74 samples.

Results

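Among the regions bound by the nuclear receptor corepressor NCOR in mouse liver, 6355 peaks coincided with a high-confidence site of the receptor PPARα. They were taken from the 115042 NCOR peaks counted in livers of Pparα WT and KO mice. A peak was included when it overlapped, by at least 1 base, a PPARα peak in both lists called from WT livers and none in either list called from Pparα KO livers. The 2 WT lists held 8975 and 11274 PPARα peaks and the 2 KO lists 131 and 92. The other 108687 NCOR peaks served for comparison, of which 6851 met a PPARα peak in 1 WT list only, 128 met one in a KO list and 101708 met none. These PPARα-bound NCOR peaks had 3881 nearest genes. The median level of PPARα at them was 13.7 tags per 10000000 in WT and 2.11 in KO, which the choice of sites fixes. The question was how much NCOR remained at sites of PPARα once the receptor was gone, and at which genes.

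NCOR was measured by ChIP-seq in 3 libraries of Pparα WT and 3 of Pparα KO livers, and PPARα in 2 libraries of each. All livers were labelled as from C57BL/6 mice of 8 to 12 weeks on chow diet. The Pparα KO strain (B6;129S4-Ppara tm1Gonz) lacks the receptor in every cell of the body, whereas the liver KO (LKO) mice of the Gps2, Ncor and Smrt lines had lost the named gene in hepatocytes through Cre recombinase driven by the albumin promoter. Each of these lines had WT livers of its own as controls. For NCOR, GPS2 and PPARα, chromatin was crosslinked with disuccinimidyl glutarate and formaldehyde, and 2 to 4 immunoprecipitations were pooled into a library. The labels do not say which libraries came from separate animals, so p-values measure the spread between libraries, which may be technical. In bulk liver, a lower tag count in fewer cells and a lower count per cell cannot be told apart.

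PPARα is a fatty acid-sensing nuclear receptor that binds DNA as a heterodimer with RXR, and in liver it drives the genes of fatty acid uptake, oxidation and ketogenesis, above all in fasting. Without an activating ligand, nuclear receptors can recruit NCOR or its relative SMRT, large scaffold proteins that hold the histone deacetylase HDAC3 together with subunits such as GPS2. The canonical PPARα element is a direct repeat of the receptor half-site with a spacing of 1 base (DR1), preceded by a short AT-rich flank.

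Peaks are named here by the nearest gene and the signed distance in bases from its transcription start site (TSS), so that Eci1 +2522 lies downstream of the start of Eci1. The following stretches of 100 bases show in capitals the best match to the DR1 with its 5′ flank, written as ACT, GGNCA and AGNTCA with 1 base between each and the next, read from the NCBIM37 (mm9) genome and centred on the match. The first 6 belong to peaks at which NCOR was called lower in Pparα KO and the last 4 to peaks at which it was not, so that both kinds can be read against the same motif. The mm9 positions and strands shown are Eci1 +2522 at chr17:24566149-24566248 (minus), Acsl5 +7226 at chr19:55335043-55335142 (plus), Ehhadh +5758 at chr16:21782013-21782112 (plus), F3 -16237 at chr3:121410235-121410334 (plus), Bik +5279 at chr15:83362519-83362618 (minus) and Pdk4 -13615 at chr6:5459782-5459881 (plus) for the first set. For the second set they are Acot1 +11218 at chr12:85361634-85361733 (plus), Acot1 -10052 at chr12:85340340-85340439 (plus), Ehhadh +4812 at chr16:21783012-21783111 (minus) and Cyp4a10 -4180 at chr4:115186586-115186685 (plus).
Eci1 +2522: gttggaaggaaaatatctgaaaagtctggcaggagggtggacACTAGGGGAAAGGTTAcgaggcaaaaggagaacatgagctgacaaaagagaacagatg
Acsl5 +7226: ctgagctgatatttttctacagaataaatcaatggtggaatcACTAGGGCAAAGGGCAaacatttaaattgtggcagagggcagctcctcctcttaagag
Ehhadh +5758: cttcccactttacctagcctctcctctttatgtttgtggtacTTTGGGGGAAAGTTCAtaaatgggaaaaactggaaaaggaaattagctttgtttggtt
F3 -16237: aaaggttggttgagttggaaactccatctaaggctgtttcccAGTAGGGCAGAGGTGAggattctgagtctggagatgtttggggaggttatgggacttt
Bik +5279: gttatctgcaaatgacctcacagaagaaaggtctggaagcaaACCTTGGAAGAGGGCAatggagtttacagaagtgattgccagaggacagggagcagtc
Pdk4 -13615: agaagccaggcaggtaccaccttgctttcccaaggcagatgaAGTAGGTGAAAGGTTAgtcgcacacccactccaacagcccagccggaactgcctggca
Acot1 +11218: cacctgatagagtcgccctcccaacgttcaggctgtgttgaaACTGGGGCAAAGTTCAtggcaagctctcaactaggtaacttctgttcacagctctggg
Acot1 -10052: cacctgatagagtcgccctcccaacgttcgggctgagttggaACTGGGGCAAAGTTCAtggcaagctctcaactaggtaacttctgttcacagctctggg
Ehhadh +4812: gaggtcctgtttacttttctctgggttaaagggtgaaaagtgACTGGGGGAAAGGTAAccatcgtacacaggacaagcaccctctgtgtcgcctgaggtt
Cyp4a10 -4180: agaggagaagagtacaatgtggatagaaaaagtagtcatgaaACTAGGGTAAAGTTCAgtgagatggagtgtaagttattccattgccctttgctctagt
The 12 defined bases of the motif were matched without a mismatch at both Acot1 peaks, with 1 mismatch at Acsl5 +7226 and Cyp4a10 -4180, with 2 at Eci1 +2522, F3 -16237 and Ehhadh +4812, with 3 at Pdk4 -13615 and Ehhadh +5758, and with 4 at Bik +5279. The 2 Acot1 peaks flank the gene and carry the same match, and closeness to the motif did not order these 10 peaks by their change in NCOR.

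The 6 NCOR libraries held 11.6 M to 14.9 M tags (M, mega). The share of tags falling in NCOR peaks was 24.5%, 23.6% and 27.5% in the WT libraries and 22.2%, 23.5% and 17.2% in the KO libraries, so that KO library 3 stood apart. The PPARα-bound peaks took a steady 19.2% to 19.7% of the tags in peaks in WT and 19.0% to 20.003% in KO. Hepatocyte markers were represented, with a PPARα-bound NCOR peak within 20000 bases of all 6 genes on the list (Alb, Apoa1, Ttr, Serpina1a, Cps1 and Tat). Of the markers of other cells that the table names as a nearest gene, none of 3 for Kupffer cells, 2 for stellate cells and 5 for bile duct cells had one, and of 5 endothelial markers only Pecam1 did. The table names none of the lymphocyte markers.

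PPARα-bound NCOR peaks were stronger and less often at promoters than other NCOR peaks. Their median level in normalised tags (tags per 10000000 of the library) was 71.3 in WT and 59.3 in KO, against 11.7 and 9.09 at the other peaks. Of the PPARα-bound peaks, 592 (9.3%) lay within 1000 bases of a TSS, 2805 (44.1%) between there and 20000 bases, and 2958 (46.5%) farther away, while 18.9% of the other peaks were promoter peaks. A peak of acetylated histone H3 lysine 27 (H3K27ac), a mark of active promoters and enhancers, was listed in Gps2 WT livers at 92.2% of them and at 65.6% of the other peaks. GPS2 was listed there at 95.8% and 36.6%, respectively. In the separate PPARα lists of Gps2 WT and Ncor WT livers, 98.6% and 98.7% of them met a PPARα peak again, against 49.5% and 53.8% of the other peaks.

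NCOR was lower in Pparα KO at a minority of these sites. By the edgeR quasi-likelihood test at an adjusted p below 0.05 (Benjamini-Hochberg over all 115042 peaks), NCOR was lower in KO at 690 PPARα-bound peaks (10.9%) and higher at 4, whereas over all NCOR peaks 2.51% were lower and 0.136% higher. The other peaks were lower in 2195 cases (2.02%) and higher in 153. Peaks that met PPARα in 1 WT list lay between, with 389 of 6851 lower (5.68%), and peaks that met no PPARα list had 1804 of 101708 lower (1.77%). Without any test, the 3 KO libraries all lay below the 3 WT libraries at 1958 PPARα-bound peaks (30.8%) and above them at 59, compared with 18.8% and 1.97% of all peaks.

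The median difference at PPARα-bound peaks was no larger than at other peaks. The median log2 difference (KO against WT) was -0.26 at these peaks, -0.33 at the other peaks and -0.32 over all, so that the bulk of the distribution was shifted below 0 everywhere. Scaling by TMM over the peaks moved the median of all peaks from -0.32 to -0.02 and that of PPARα-bound peaks to 0.05. With that scaling 421 of them were lower and 152 higher, against 1206 and 873 of all peaks. The spread of the PPARα-bound peaks was narrower than that of peaks in no PPARα list except at the lowest end. The limits of the lowest 25%, 10%, 5% and 1% were -0.49, -0.93, -1.46 and -2.90 at PPARα-bound peaks and -0.69, -1.10, -1.40 and -2.17 at peaks in no list. The upper 5% began at 0.14 and 0.54. Among the 690 peaks called lower, 514 had a log2 difference of -1 or less and 164 of -2 or less, and 140 were found in none of the 3 KO peak lists of NCOR. Their nearest genes numbered 632. Leaving out KO library 3, which had the fewest tags in peaks, left 461 lower peaks and 11 higher, whereas leaving out WT library 1 or WT library 3 left 418 and 378. In all 10 alternative fits, 303 of the 690 stayed lower.

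**Figure D1:**
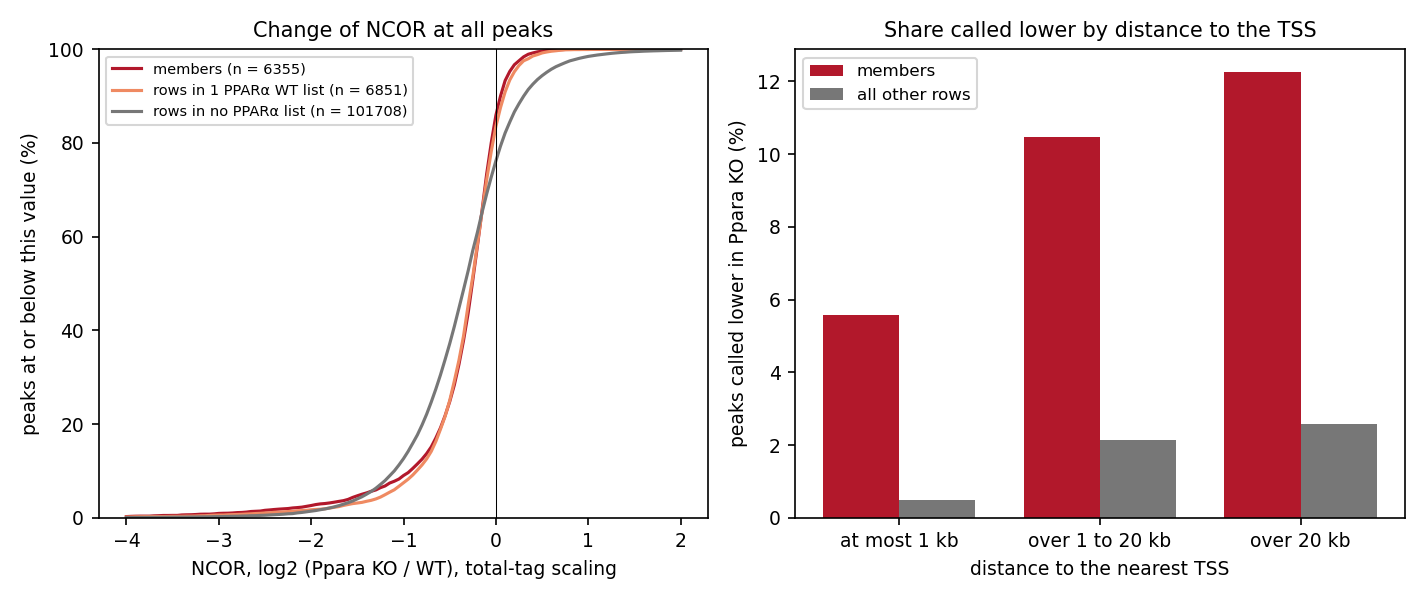
Left, cumulative share of peaks (vertical axis, %) by the log2 difference of NCOR between Pparα KO and WT (horizontal axis) for the 6355 PPARα-bound peaks ("members"), the 6851 peaks in 1 PPARα WT list and the 101708 peaks in none. Right, share of peaks called lower (%) by distance to the nearest TSS. The curves cross below 0, with medians of -0.26, -0.26 and -0.33, and the share called lower was above that of the other peaks at each distance.

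The share of lower peaks was higher away from promoters. At promoters, 33 of 592 PPARα-bound peaks were lower (5.57%), between 1000 and 20000 bases 294 of 2805 (10.5%), and beyond 20000 bases 363 of 2958 (12.3%). For the other peaks these shares were 0.481%, 2.13% and 2.59%. The median log2 differences of the 3 classes of PPARα-bound peaks differed little, at -0.24, -0.24 and -0.27. Their NCOR level in WT was lowest at promoters, with medians of 59.7, 73.5 and 71.5 normalised tags. Between chromosomes the share lower ranged from 6.15% on chromosome 18 to 14.4% on chromosome 2, leaving out chromosome X with its 24 peaks and the unplaced sequences.

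At the largest falls NCOR was nearly gone. At Bik +5279, in an intron of a gene for a pro-apoptotic BH3-only protein, NCOR stood at 52.0, 47.3 and 59.8 normalised tags in WT and at 0, 0.673 and 1.42 in KO (log2 difference -6.01 ± 0.52 SE, edgeR adjusted p = 8.88e-26). At Nppc +36951, beyond the gene for C-type natriuretic peptide, the values were 41.4, 49.9 and 62.4 in WT and 2.45, 1.35 and 1.42 in KO (-4.83 ± 0.46, adjusted p = 1.35e-21). At F3 -16237, upstream of the gene for tissue factor, which starts blood coagulation, they were 56.9, 55.0 and 74.1 against 4.09, 2.69 and 2.85 (-4.25 ± 0.40, adjusted p = 2.04e-22). All 3 peaks were missing from each KO peak list. Bik +5279 held 190 tags over the WT libraries and 3 over the KO libraries, a ratio per library total of 72.8 (exact 95% interval 24.5 to 356, for counting error only). PPARα itself was measured at 11.3 and 10.7 normalised tags at Bik +5279 in WT, and at 4.12 and 0.733 in KO. At F3 -16237 the WT libraries gave 29.7 and 24.5 and the KO libraries 0.687 and 2.20.

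The next 5 in size lay at Mir200c -1439 (-3.74), next to a microRNA of the miR-200 family, at Chrna2 -93 (-3.73), the promoter of a nicotinic acetylcholine receptor subunit, at Sall3 -205813 (-3.38), far from a zinc finger factor, at Capg +21100 (-3.29), in the region of an actin capping protein, and at Palb2 +13951 (-3.24), in an intron of the gene for the partner of BRCA2. Palb2 +13951 was the strongest of the 8 together with Sall3 -205813, with 126, 108 and 142 normalised tags in WT and 18.0, 13.5 and 8.54 in KO. All 8 falls kept their call in each of the 10 alternative fits. Bik +5279 lies 2.2 Mb from Ppara on chromosome 15.

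The region around the targeted gene held more lower peaks of either kind. Within 2 Mb of Ppara (chr15:85565413-85633249, mm9), 7 of 27 PPARα-bound peaks (25.9%) and 22 of 219 other peaks (10.0%) were lower, and elsewhere in the genome 10.8% and 2.00%. The stock name gives 129S4 as a parental strain, and near the targeted gene the strain of the flanking DNA and the genotype cannot be told apart. Without the chromosome 15 peaks within 10 Mb, an alternative added after seeing the data, the share lower among PPARα-bound peaks was 10.8%.

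Rises were few and small with scaling to total tags. With TMM scaling 152 PPARα-bound peaks were higher (2.39%), beside 0.759% of all peaks. The values that follow are scaled to total tags unless TMM is named. NCOR was higher at Smad2 +4496 (1.00 ± 0.30), a transducer of TGF-β signals, with 30.9, 12.0 and 27.8 normalised tags in WT and 49.9, 57.2 and 34.9 in KO. It was also higher at Bmpr1a +12455 (0.74), a BMP receptor, at Kcns1 +39358 (0.73), a potassium channel subunit, and at Mir107 +1072 (0.56). The adjusted p-values (edgeR) were 0.0349, 0.022, 0.00646 and 0.0407, and each of the 4 lost its call in 5 or more of the 10 alternative fits. The 4 strongest PPARα-bound peaks in WT, at Pim3 +8804, Atp6v0e -38352, Tiam2 -80987 and Sec14l2 +6543, had means above 240 normalised tags. None was called, with log2 differences of 0.05, -0.29, -0.07 and -0.21, the last 3 of which turn positive with TMM scaling.

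Lower NCOR was found at target genes in each of the 7 functional lists of known PPARα targets. Of 76 target genes, 75 were in the table and 55 had a PPARα-bound NCOR peak within 20000 bases, 109 peaks in all. NCOR was lower at 22 of the 109 (20.2%), spread over 19 genes, and higher at none, while over all PPARα-bound peaks within 20000 bases of a gene 327 of 3397 (9.63%) were lower. The median log2 difference of the 109 was -0.30, beside -0.24 for the 3397. Of the 22, 13 kept their call in all 10 alternative fits and 9 lost it in at least 1 of them. The lists were drawn up with earlier results of these data known, so the counts describe them and support nothing further.

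Among genes of mitochondrial fatty acid oxidation and ketogenesis, 13 of 16 had a PPARα-bound peak and 4 of their 20 peaks were lower. At Cpt2 +1478, in an intron of the inner-membrane carnitine palmitoyltransferase, NCOR stood at 30.9, 37.8 and 37.9 normalised tags in WT and 10.6, 8.08 and 9.25 in KO (-1.93 ± 0.36, adjusted p = 2.68e-05). At Eci1 +2522, in an intron of the mitochondrial enoyl-CoA isomerase, the WT libraries gave 25.2, 25.8 and 29.5 and the KO libraries 3.27, 2.02 and 2.13 (-3.41 ± 0.46, adjusted p = 1.74e-10). Neither pair of groups overlapped. Slc25a20 +697, in the carnitine-acylcarnitine carrier, fell by 1.79 and Decr1 +639, in the dienoyl-CoA reductase, by 1.43 on the log2 scale, the latter with its call lost in 6 of 10 alternative fits. By contrast, Cpt1a +3237, in the rate-limiting carnitine palmitoyltransferase of the outer membrane, had 131, 110 and 120 in WT and 137, 139 and 107 in KO (0.08 ± 0.17, adjusted p = 0.842). The promoter peak of Acadm at -252 (0.26), encoding the medium-chain acyl-CoA dehydrogenase, was not called either.

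Peroxisomal oxidation was represented by 9 of 10 genes and 16 peaks, 3 of them lower. At Abcd2 +11898, in an intron of a peroxisomal fatty acid transporter, NCOR was 13.8, 11.2 and 24.4 normalised tags in WT and 1.63, 2.02 and 2.13 in KO (-3.02 ± 0.51, adjusted p = 1.46e-06), and no KO list held the peak. Abcd2 +11898 lies 5.4 Mb from Ppara on chromosome 15, within the 10 Mb left out in the alternative above. Ehhadh +5758, in the bifunctional enzyme of the pathway, had 45.5, 53.3 and 53.9 in WT and 8.17, 13.5 and 12.1 in KO (-2.15 ± 0.33, adjusted p = 4.98e-08). Acaa1b +1480, in a peroxisomal thiolase, fell by 1.33 on the log2 scale.

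Of the 7 lists, omega-oxidation had the largest share, with 3 lower among 8 peaks at 5 of its 7 genes. Upstream of Cyp4a14, a fatty acid omega-hydroxylase, the peak at -1535 held 102, 111 and 99.4 normalised tags in WT and 64.6, 68.7 and 22.1 in KO (-1.01 ± 0.21, adjusted p = 0.000284), but DESeq2 gave it an adjusted p of 0.43. Cyp4a32 -3983 fell by 1.12 and Cyp4a10 +1023 by 0.95 on the log2 scale, the latter losing its call without KO library 3. In the acyl-CoA thioesterase list, 2 of 10 peaks were lower, at Acot8 +1153 (-2.83 ± 0.53) and at Acot4 -5327 (-0.61 ± 0.19, adjusted p = 0.0469, kept in 1 of 10 alternative fits). The Cyp4a and Acot genes are clusters of near-identical copies, so that tags there may be divided between copies.

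For uptake and activation, 6 of 10 genes had 18 peaks, 3 of them lower. Those were Fabp2 -7219 (-1.01), near an intracellular fatty acid-binding protein, and Acsl5 +7226 (-1.27) and +13645 (-1.07), in a long-chain acyl-CoA synthetase, and all 3 lost their call in most alternative fits. Lipid droplet genes had 2 of 15 peaks lower, at Plin4 -986 (-2.14 ± 0.44, adjusted p = 0.000193) and at Plin2 -1934 (-1.06), upstream of 2 genes for droplet coat proteins. The call at Plin2 -1934 was kept in 3 of 10 alternative fits. For glucose metabolism and regulators, 5 of 22 peaks were lower, shared by Vnn1, Pdk4 and Lpin1. Both Vnn1 peaks, upstream of the pantetheinase vanin-1, were lower: Vnn1 -9530 held 56.9, 60.2 and 53.1 in WT and 13.9, 19.5 and 13.5 in KO (-1.84 ± 0.31, adjusted p = 7.91e-07). Fgf21 and Creb3l3, a fasting hormone and a fasting-induced factor on the same list, had no PPARα-bound NCOR peak within 20000 bases.

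Neighbouring peaks of 1 gene received different calls. Around Pdk4, the kinase that restrains glucose oxidation in fasting, NCOR at -13615 was 32.5, 45.6 and 37.9 normalised tags in WT and 6.54, 6.73 and 7.83 in KO (-2.44 ± 0.37, adjusted p = 4.91e-08). At -2688 the WT libraries gave 92.7, 85.1 and 96.9 and the KO libraries 44.1, 31.6 and 19.2 (-1.54 ± 0.24, adjusted p = 7.45e-08). At the promoter, -180, the WT libraries gave 100, 115 and 108 and the KO libraries 112, 109 and 66.2, which overlap (-0.17 ± 0.19, adjusted p = 0.679, and 0.12 with TMM scaling). The same held within Ehhadh, where the peak at +4812, in the same intron as the lower one, held 116, 92.0 and 108 in WT and 105, 94.9 and 74.0 in KO (-0.21 ± 0.19, and 0.10 with TMM scaling). At Eci1 the promoter peak at -112 had a log2 difference of -0.52 ± 0.31 (adjusted p = 0.399), while the intron peak fell. The difference between 2 peaks of a gene was not tested. Peaks other than the strongest of each gene, and the genes in the plot of NCOR at target genes, were picked after their values were seen.

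**Figure D2:**
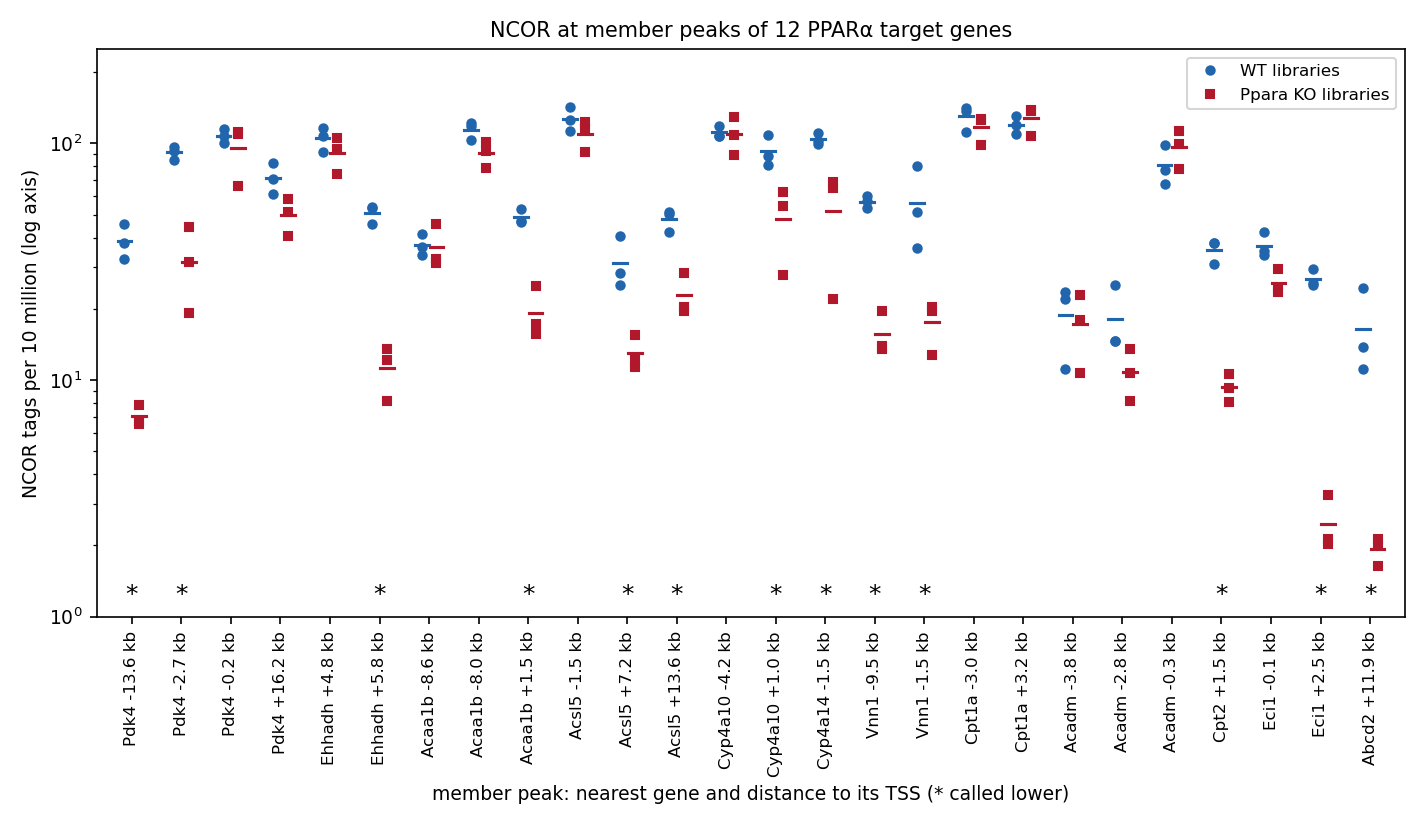
NCOR in normalised tags, per 10000000 (log axis), at PPARα-bound peaks of selected target genes, named by gene and distance to the TSS in kb. Circles are the 3 WT libraries, squares the 3 Pparα KO libraries, bars the means, and asterisks mark peaks called lower. At Pdk4, Ehhadh, Acaa1b, Acsl5 and Eci1 a lower peak stands beside peaks whose groups overlap or were not called.

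Lists of other pathways had hardly any lower peaks. None of 17 peaks at 12 genes of LXR- and SREBP1-driven lipogenesis, such as Scd1 and Lpcat3, was lower, nor any of 10 peaks at 5 genes of bile acid metabolism, such as Slc10a1 and Nr0b2. The same was true of 14 peaks at acute phase genes, 9 at hepatocyte markers and 4 at hepatocyte transcription factors. Of 10 peaks at circadian clock genes 1 was lower, at the PAR-domain factor gene Hlf (-1.64). Each of these lists holds few peaks, and none was compared by a test with the 10.9% of all PPARα-bound peaks.

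The share of lower peaks differed with how much receptor and corepressor a site held. When the PPARα-bound peaks were cut into 4 equal groups by PPARα tags in WT, which chose them, 8.11%, 10.4%, 10.9% and 14.1% were lower from the weakest to the strongest. The median log2 difference went the opposite way, from -0.28 to -0.23, the share without overlap stayed between 29.7% and 32.8%, and the median NCOR level in WT rose from 56.8 to 92.3 normalised tags. In 4 groups by NCOR in the separate Gps2 WT livers, 21.0%, 10.7%, 6.72% and 4.86% were lower, and the median log2 difference ran from -0.45 to -0.18. Combining both, the 4 groups by the ratio of PPARα to NCOR tags had 3.64%, 5.31%, 10.2% and 24.0% lower. The medians of NCOR in Gps2 WT in the first and last group of that ratio were 67.8 and 17.5 normalised tags. All NCOR peaks were also cut into 4 groups by mean NCOR over the WT and KO libraries of the test. A peak that lost NCOR in KO was thereby moved toward a weaker group. The strongest group held 5765 PPARα-bound peaks, 7.84% of them lower, and 22996 others, 2.19% of them lower. In the second strongest group 37.9% of 457 PPARα-bound peaks were lower, against 2.68% of the others, and in the next 52.7% of 112 against 2.57%. The weakest held 21 PPARα-bound peaks, 6 of them lower. All NCOR peaks with a value in the separate Gps2 WT livers were cut by that value as well. From the strongest to the weakest group, 8.25%, 22.0%, 30.0% and 30.4% of the PPARα-bound peaks were lower. The shares of the others were 2.42%, 3.03%, 2.98% and 1.94%.

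**Figure D3:**
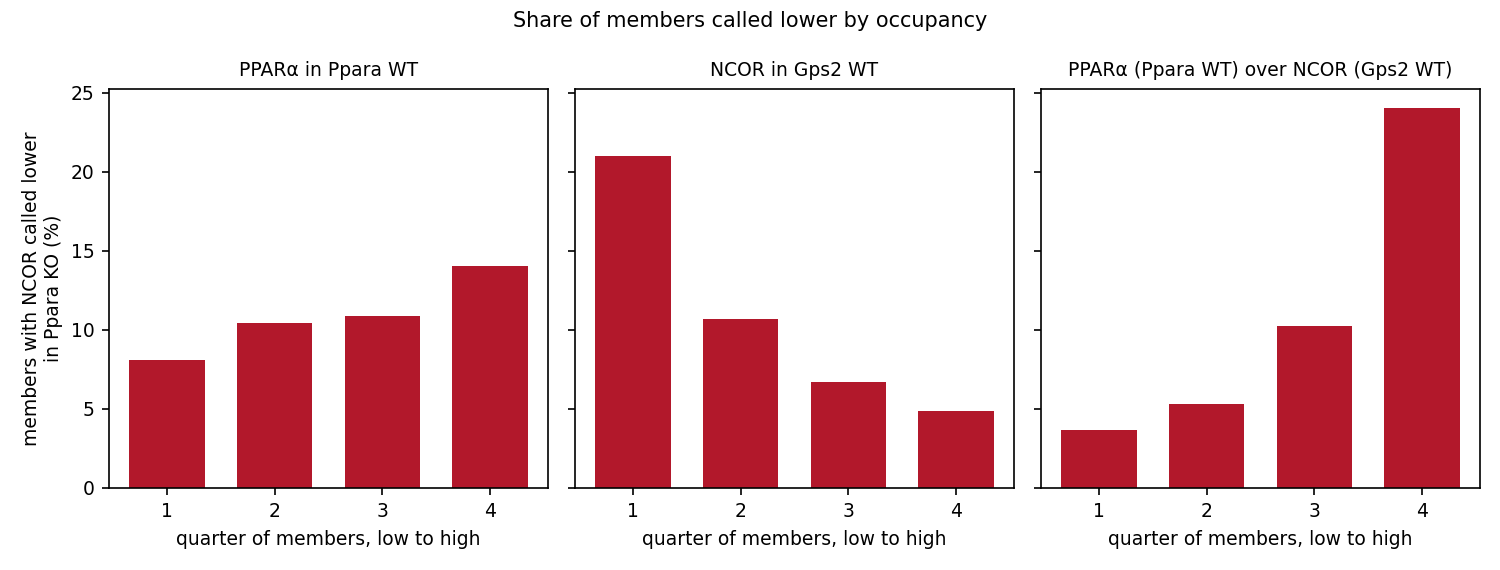
Share of PPARα-bound NCOR peaks called lower in Pparα KO (%, vertical axis) in 4 equal groups of these peaks from low to high, by PPARα tags in Pparα WT (left), by NCOR tags in Gps2 WT (middle) and by their ratio (right). The share runs from 8.11% to 14.1% with PPARα, from 21.0% down to 4.86% with NCOR, and from 3.64% to 24.0% with the ratio.

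The lower peaks can be described beside the rest. Their median NCOR level was 49.5 normalised tags in WT and 17.5 in KO, against 73.9 and 63.8 at the PPARα-bound peaks that were not lower. The call itself selects for the KO level. Their median PPARα level was 14.7 in WT and 1.42 in KO, against 13.6 and 2.13, in the libraries whose peaks chose the sites. They lay farther from a TSS, at a median of 21354 bases against 16643. Without an H3K27ac peak in Gps2 WT livers, 135 of 495 PPARα-bound peaks were lower (27.3%), and with one 555 of 5860 (9.47%). Of the 226 peaks found in no KO list of NCOR 61.9% were lower, and of the 5672 found in all 3 lists 7.48%, but these lists come from the same libraries as the test.

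Few PPARα-bound peaks held a close match to the DR1, but a larger share of them did than of the other NCOR peaks. In 200 bases at the peak centre and on either strand, a DR1 (AGGTCA, 1 base, AGGTCA, at most 1 mismatch) was found in 4.52% of them and 1.99% of the other peaks. The DR1 with its 5′ flank, at most 1 mismatch in 12 defined bases, was found in 2.41% and 0.453%. A related element with spacing 2 and the 5′ flank used by Rev-Erb receptors (TAGGTCA, 1 base, TAGGTCA, at most 2 mismatches) was found in 1.09% and 0.49%. Matches to the DR1 and the flanked DR1 overlap in part. Motifs of other liver factors were more alike: CAAAGTCCA of HNF4 in 2.42% and 2.39%, TGTTTAC of FOXA in 7.60% and 5.60%, and TTGCNNAA of C/EBP in 23.6% and 15.9%.

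Peaks closer to the flanked DR1 were called lower more often, at PPARα-bound and other peaks alike. The share at PPARα-bound peaks was 16.3% with 0 or 1 mismatch, then 13.0%, 11.2%, 10.4% and 8.21% with 2, 3, 4 and 5 or more. At the other peaks it was 5.49%, 3.73%, 2.51%, 1.89% and 1.48%. The median log2 difference at PPARα-bound peaks ran the other way, from -0.19 with 0 or 1 mismatch to -0.27 with 5 or more, and the share without overlap of the WT and KO libraries stayed between 27.5% and 31.5%. For the unflanked DR1 the shares were 8.01%, 9.06%, 11.2%, 11.7% and 10.9%, with no fall as mismatches rose. For the flanked element with spacing 2 they were 23.2% with up to 2 mismatches (69 peaks), then 18.4%, 12.7% and 9.77%, and the other NCOR peaks followed the same order, from 12.8% down to 1.70%. A match is a description of letters and not a binding site. Neither Acot1 peak with an exact flanked DR1 was called: Acot1 +11218 had 101, 77.4 and 86.8 normalised tags in WT and 94.8, 99.0 and 63.3 in KO (-0.05, and 0.25 with TMM scaling), and Acot1 -10052 had a log2 difference of 0.17.

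**Figure D4:**
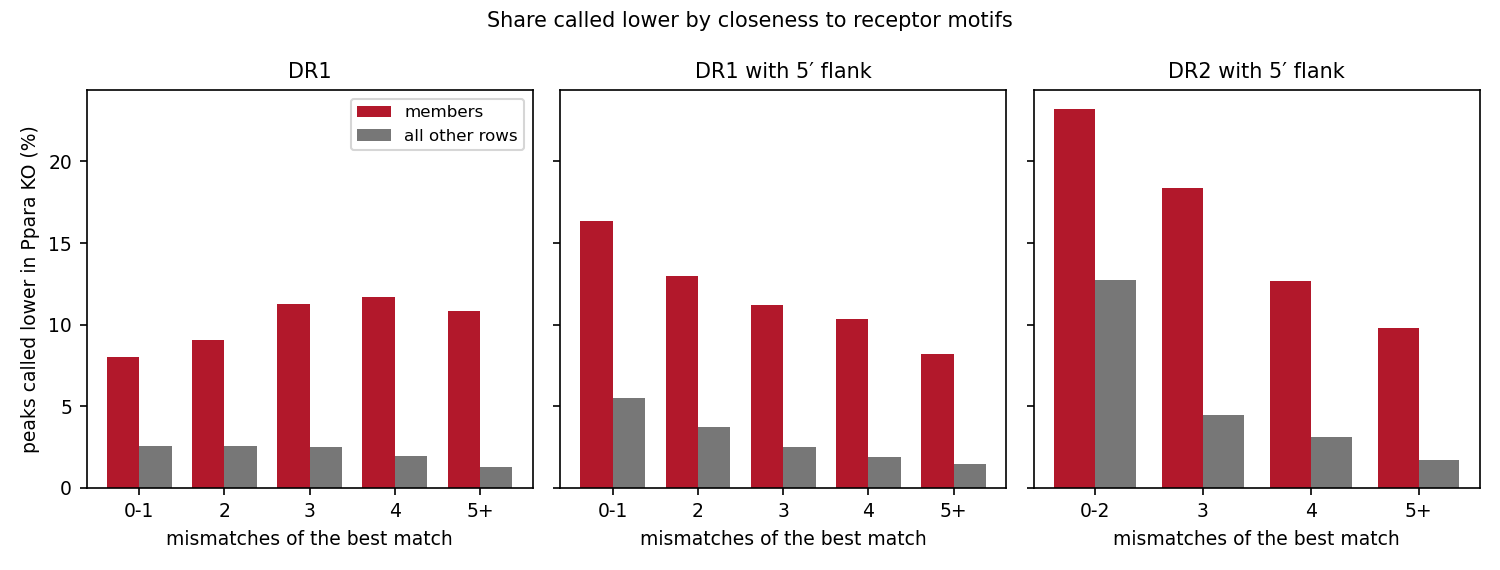
Share of NCOR peaks called lower in Pparα KO (%, vertical axis) by the number of mismatches of the best match in 200 bases (horizontal axis), for PPARα-bound peaks ("members") and all other peaks. The motifs are the DR1, the DR1 with 5′ flank and the spacing 2 repeat with 5′ flank. The share at PPARα-bound peaks falls from 16.3% to 8.21% for the flanked DR1 (from 5.49% to 1.48% at the other peaks) and from 23.2% to 9.77% for the flanked spacing 2 repeat, and shows no fall for the plain DR1.

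GPS2, counted in separate libraries of the same line, was lower where NCOR was. The GPS2 libraries of Pparα WT and KO held 13.0 M to 15.4 M tags, with 2.42% to 4.39% of them in GPS2 peaks in WT and 1.07% to 2.06% in KO. GPS2 was lower at 60 of the 5452 GPS2 peaks that met a PPARα-bound NCOR peak (edgeR, adjusted p below 0.05), with 0.273% of all 27842 GPS2 peaks lower. None was higher by edgeR or DESeq2, and 7 of all were at an unadjusted p below 0.05 by edgeR. Of those meeting a peak with lower NCOR 54 of 543 (9.94%) were lower, and of those meeting a PPARα-bound peak without lower NCOR 6 of 4912 (0.122%). The median log2 difference of GPS2 was -1.72 and -1.07 in these sets, and it was negative at all 544 peaks with lower NCOR and a GPS2 value, as it was at 4892 of the 4927 PPARα-bound peaks without lower NCOR and at 26397 of all 27842 GPS2 peaks. Over all GPS2 peaks the median was -0.93, which TMM scaling moves to 0.01 and that of the PPARα-bound ones to -0.18, with 24 lower. Leaving out 1 library left 19 lower peaks (WT 1), 17 (WT 3), 5 (KO 1), 2 (KO 2) or 21 (KO 3), and 54 without WT 2.

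At Palb2 +13951, GPS2 stood at 23.6, 26.0 and 50.8 normalised tags in WT and 2.19, 0 and 0.721 in KO (log2 difference -4.97). At Capg +21100 the GPS2 values ran to 12.5, 13.7 and 24.6 in WT and 0.728, 1.51 and 1.44 in KO (-3.69). At Vnn1 -9530 the libraries gave 16.0, 14.3 and 20.8 in WT and 2.19, 2.27 and 1.44 in KO (-3.06). The WT and KO groups were separate at all 3 sites, at which NCOR fell as well. The share of all GPS2 peaks with separate groups is not given here. Each KO library had a smaller share of its tags in GPS2 peaks than each WT library. At Pdk4 -180, where NCOR was not called, GPS2 had 13.9, 24.7 and 36.9 in WT and 13.8, 9.08 and 5.05 in KO (-1.42), with KO library 1 close to WT library 1.

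**Figure D5:**
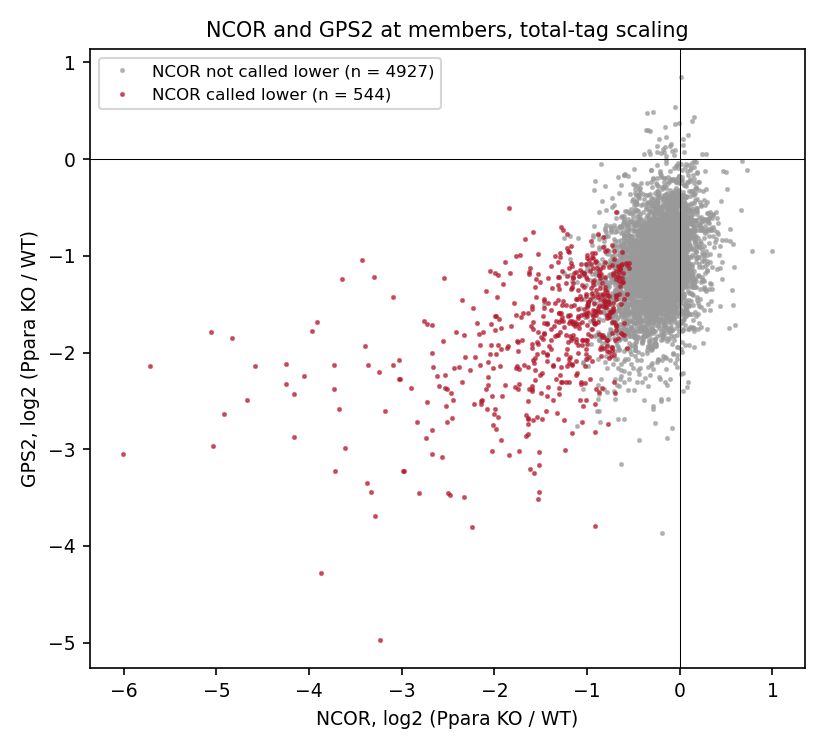
Log2 difference between Pparα KO and WT of GPS2 (vertical axis) against that of NCOR (horizontal axis), both scaled to total tags, at the PPARα-bound NCOR peaks that met a GPS2 peak. Nearly all points lie below 0 for GPS2, all 544 with NCOR called lower (median -1.72) and 4892 of the 4927 others (median -1.07).

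In Gps2 LKO, almost no change of NCOR at these sites passed the test, which does not show that NCOR was the same. In Gps2 LKO livers NCOR was lower at 1 and higher at none of the 6227 NCOR peaks of that table that met a PPARα-bound peak, beside 0.00495% lower and 0.0124% higher over all 80813. At an unadjusted p below 0.05 there were 29 and 43, and DESeq2 called 2 lower. The median log2 difference was -0.07, and -0.02 at the peaks that lost NCOR in Pparα KO. The sign of the first median rested on single libraries. It moved to -0.35 when LKO library 2 was left out and turned positive without WT library 1 (0.04), WT library 2 (0.05) or LKO 3 (0.19). With TMM scaling 22 were lower and 23 higher, and the share of tags in peaks ranged from 7.33% to 14.7% between the LKO libraries.

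Loss of NCOR went with lower GPS2 levels at these sites, while few PPARα peaks passed the test. In Ncor LKO livers the median log2 difference of GPS2 was -1.51 at the 6204 GPS2 peaks that met a PPARα-bound site and -1.12 over all 56278. Of these, 10 were lower by edgeR, beside 0.0338% over all GPS2 peaks. The count hung on WT library 3, which had 3.07% of its tags in peaks against 8.23% and 7.82% in the other WT libraries. Without it 5982 were lower (96.4%), beside 59.1% of all GPS2 peaks. DESeq2 called 3138 lower (50.6%), beside 14.1% of all. Leaving out any of the other 5 libraries left 0 at these sites and over all. With TMM scaling the median at these sites was -0.39, with 188 lower and 3 higher, beside 258 and 999 of all 56278. PPARα in Ncor LKO was lower at 3 and higher at 1 of 6293 of its peaks at these sites, beside 0.0453% and 0.151% of all 86168, with a median of 0.13. WT library 3 had 8.96% of its tags in peaks against 19.3% and 18.6%. Without it 53 were lower and 3 higher, beside 539 and 296 of all, and the median at these sites was -0.14. The sign of this median rested on single libraries, since it was also negative (-0.05) without LKO library 3 but reached 0.30 without WT library 1.

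H3K27ac rose at a part of the sites when NCOR was removed. In Ncor LKO livers 442 of the 4971 H3K27ac peaks that met a PPARα-bound NCOR peak were higher (8.89%) and 82 lower (1.65%), beside 2.32% and 0.801% of all 68817. Of the H3K27ac peaks that met a site with lower NCOR in Pparα KO, 88 of 589 were higher (14.9%), and of those that met a site without lower NCOR 370 of 4463 (8.29%), with medians of 0.23 and 0.06, and an H3K27ac peak can meet both kinds of site. Leaving out WT library 2 left 115 higher peaks, WT library 3 145 and WT library 1 192, and each of the 3 LKO libraries 341 to 453. In Smrt LKO livers edgeR called none of the 4971 H3K27ac peaks at these sites and none of all 68800. At an unadjusted p below 0.05 by edgeR, 224 at these sites were lower and 391 higher, beside 1796 and 2283 of all. DESeq2 called 3 lower and 18 higher at these sites, beside 21 and 47 of all. The median log2 difference in Smrt LKO was 0.11 at the sites with lower NCOR in Pparα KO and 0.0003 at the other PPARα-bound sites. The difference between the Ncor and Smrt lines was not tested. Other NCOR peaks with lower NCOR in Pparα KO met 1356 H3K27ac peaks in the Ncor line, 116 of them higher in LKO (8.55%). In the Gps2 line they met 1541, 88 of them higher in LKO (5.71%), beside 33 of 623 (5.30%) for PPARα-bound sites with lower NCOR. In Gps2 LKO livers, with 2 libraries a group, 190 of the 5047 H3K27ac peaks at PPARα-bound sites were higher (3.76%) and 38 lower, beside 1.07% and 0.194% of all 85709. Without WT library 1 or 2 the higher peaks numbered 42 and 55, and without LKO library 1 or 2 they numbered 400 and 427.

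Examples were the H3K27ac peaks over Ehhadh, Vnn1 and Cyp4a14. At the Ehhadh sites H3K27ac stood at 637, 615 and 663 normalised tags in Ncor WT and 1197, 1270 and 1045 in Ncor LKO (0.87, adjusted p = 0.0035), and 1 H3K27ac peak covers both NCOR peaks, of which only the one at +5758 lost NCOR in Pparα KO. At Vnn1 -1517 the WT libraries gave 74.2, 77.7 and 74.9 and the LKO libraries 225, 147 and 192 (1.31, adjusted p = 0.0042). At Cyp4a14 -1535 the WT libraries gave 106, 195 and 242 and the LKO libraries 448, 452 and 353 (1.21, adjusted p = 0.027). The groups do not overlap at any of these, and the share of all H3K27ac peaks without overlap is not given here. The WT livers of the Smrt line, in the same table, had 225, 268 and 278 at Vnn1 -1517 and 489, 583 and 468 at Cyp4a14 -1535, at or above the highest Ncor library, and the part of this difference between lines in the result was not tested. At Eci1 and Cpt2, where NCOR fell in Pparα KO, H3K27ac was not called, with log2 differences of 0.10 and 0.19.

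The RNA-seq used here compares Gps2 LKO with WT livers, 4 libraries each, and so bears on these genes only after loss of GPS2. Of 1987 tested genes with a PPARα-bound NCOR peak within 20000 bases, 489 (24.6%) were higher and 639 (32.2%) lower in Gps2 LKO, beside 23.4% and 21.4% of all 12220 genes (edgeR). Genes with a site that lost NCOR in Pparα KO changed in nearly the same shares as those with other PPARα-bound sites. Of the former and the latter, 57 of 223 (25.6%) against 432 of 1764 (24.5%) were higher, and 73 (32.7%) against 566 (32.1%) lower. Of the 55 target genes with a PPARα-bound site, 25 were higher and 12 lower. Markers of other liver cells were higher in the same comparison, 5 of 5 for stellate cells (median log2 difference 0.82), 5 of 6 for Kupffer cells (0.39), 3 of 5 for bile duct cells (0.61) and 2 of 5 for endothelial cells (0.25), beside 3 of 6 hepatocyte markers (0.20), with none lower, and their part in the result was not tested. LKO libraries 2 and 3 differed from the other LKO libraries more than these from each other, and without library 2 the counts were 554 higher and 791 lower of 1995 genes tested.

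Cyp4a14 transcripts rose most among the target genes with a lower NCOR site, from 4.30, 4.44, 3.58 and 5.49 CPM (RNA counts scaled to the library total) in WT to 117, 124, 102 and 109 in LKO (log2 difference 4.85 ± 0.11 SE, edgeR adjusted p = 6.76e-13). Abcd2 rose from 21.2, 22.8, 22.8 and 24.3 to 58.1, 67.0, 60.1 and 59.7 (1.61 ± 0.07). Pdk4 rose from 1.59, 2.79, 3.03 and 2.17 to 4.52, 4.93, 4.59 and 5.15 (1.17 ± 0.17). Not all followed: Cpt2 was lower, with 157 to 162 CPM in WT and 113 to 116 in LKO (-0.30 ± 0.05), Plin4 was lower (-1.23 ± 0.14), and Ehhadh and Eci1 were not called (0.11 and 0.02, adjusted p = 0.0899 and 0.869). CPM here are of total counts, and the TMM scaling of the test raises log2 differences by a median of 0.18 above them.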

How the data were processed

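NCOR, GPS2, PPARα and H3K27ac were measured by ChIP-seq in liver, and RNA by RNA-seq. The authors aligned ChIP reads to mm9 with Bowtie2, called peaks with HOMER and deposited raw tag counts per peak, with each library's total in the column names. RNA reads were aligned and counted per gene, and the processing notes name HISAT2, SAMtools, featureCounts and the builds mm10 and GRCm38. Columns of the authors' own comparisons in the RNA table (fold changes, likelihood ratios, p-values, FDR and a call) were not used, and 0 columns of per-sample values lacked a sample.

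Peaks were overlapped with bedtools 2.31.1 (1 base), and counts were tested with edgeR 4.0.16 in R 4.3.3 (glmQLFit and glmQLFTest) within each table, keeping peaks with at least 1 tag, with library sizes set to the total tags and no covariate. RNA counts were filtered with filterByExpr and scaled by TMM. Features were called at a Benjamini-Hochberg adjusted p below 0.05 over the whole table. Normalised tags are tags per 10000000 of the library total. Standard errors are those of the log2 differences. DNA was read from mm9 with pysam 0.24.0, with motifs searched on either strand of a 200 base window at the peak centre. The test was checked on simulated data.

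Groups follow the labels. Named peaks were, for each target gene, the strongest PPARα-bound NCOR peak within 20000 bases of its TSS, the 8 largest falls and 4 largest rises with a mean of at least 30 raw tags and groups that did not overlap, and the 4 strongest peaks in WT. The sites and gene lists were chosen with earlier results of these data known. Alternatives were TMM scaling, filterByExpr, DESeq2 1.42.0, the replicate number as a block, leaving out each library and other rules for choosing peaks. Counting error alone limits peaks with few tags, and pooled immunoprecipitations hide the spread between animals.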

Additional observations from a re-analysis of the deposited data

Results flagged for a closer look

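Dixon's test of the highest and lowest sample was run on the RNA of 24 named genes in Gps2 WT and LKO livers, 48 groups of 4 samples, and 2 passed its 95% critical value, where chance gives about 1 in 20. The Acaa1b transcript in Gps2 LKO was set apart by 1 sample at 600 CPM (counts scaled to the library total), with the others at 742, 754 and 768 (gap over range 0.848). The Palb2 transcript in Gps2 LKO had 1 sample at 0.227 CPM, with the others at 0.685, 0.747 and 0.755 (gap over range 0.867). Palb2 stayed below 1 CPM in every library of both groups, down to 0.068 in WT library 4, so few counts underlie this value.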

How the results depend on the processing

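For NCOR in Pparα KO, DESeq2 called 445 PPARα-bound peaks lower and 1 higher, and TMM 421 and 152. Leaving out 1 library gave 378 to 682 lower and 0 to 11 higher. A PPARα peak in at least 1 WT list gave 13206 peaks, 8.17% of them lower. A mean of at least 30 raw tags gave 7.68% lower and 2.11% of the other peaks, and a promoter limit of 3000 bases gave 0.815% of other promoter peaks. Lower GPS2 peaks in Pparα KO numbered 109 with filterByExpr, 24 with TMM and 2 to 54 without 1 library. NCOR in Gps2 LKO had 22 lower and 23 higher with TMM, 2 lower with DESeq2, and 0 to 5 lower and 0 to 2 higher without 1 library. GPS2 in Ncor LKO had 749 lower with filterByExpr, 3138 with DESeq2, 188 lower and 3 higher with TMM, and 0 to 5982 lower without 1 library. Over all GPS2 peaks of that comparison these were 1698 lower, 7959 lower, 258 lower and 999 higher, and 0 to 33248 lower. PPARα in Ncor LKO had 48 lower and 106 higher with TMM, 1 lower with DESeq2, and 0 to 53 lower and 0 to 3 higher without 1 library. H3K27ac in Ncor LKO had 146 lower and 666 higher with DESeq2, and 10 to 136 lower and 115 to 453 higher without 1 library. In Smrt LKO these were 3 and 18 with DESeq2, and 0 to 1 each way without 1 library. In Gps2 LKO 126 were higher with TMM, and 8 to 312 were lower and 42 to 427 higher without 1 library, where the lone library was assumed to vary like the other group. The cause was not tested for any of these.

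The replicate numbers were not used as pairs in the main fits. In no comparison with 3 or more pairs were the correlations of same-numbered deviations above 0.1 for every pair. For NCOR in Pparα WT and KO they were -0.02, 0.25 and 0.27, which does not show that pairing was absent. For H3K27ac in Gps2 WT and LKO, with 2 libraries a group, the correlation was 0.113. With the replicate block, NCOR in Pparα KO had 446 lower and 0 higher, GPS2 in Pparα KO 0 lower, NCOR in Gps2 LKO 19 lower and 13 higher, GPS2 in Ncor LKO 3266 lower, PPARα in Ncor LKO 0 lower and 0 higher, H3K27ac in Ncor LKO 38 lower and 282 higher and H3K27ac in Gps2 LKO 203 lower and 608 higher.

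With TMM scaling, NCOR differences that were negative became positive at Acot1 +11218 (0.25), Acsl5 -1471 (0.10), Cyp4a10 -4180 (0.27), Ehhadh +4812 (0.10), Pdk4 -180 (0.12), Plin2 -1069 (0.10), Ppara -3565 (0.25), Atp6v0e -38352 (0.015), Tiam2 -80987 (0.25) and Sec14l2 +6543 (0.11), none of which had been called. Leaving out 1 library turned the sign at Acot1 +11218 (-0.17 to 0.13), Cyp4a10 -4180 (-0.17 to 0.091), Lpin1 -7672 (-0.021 to 0.19), Pdk4 -180 (-0.29 to 0.038), Pim3 +8804 (-0.0046 to 0.14), Ppara -3565 (-0.19 to 0.065), Slc25a20 +42 (-0.16 to 0.38) and Tiam2 -80987 (-0.14 to 0.012). The other values were those for single peaks together with the counts called over all rows of a comparison. Of these, 516 stayed the same, 75 lost a call, 2 gained one and 102 moved. A single peak stayed the same when it kept its direction and its side of the threshold, and moved when it shifted by more than the spread between libraries. A count moved when it changed by a factor above 1.5.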

Other observations

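The 3 PPARα libraries of Gps2 WT livers differed from each other by less than sampling noise over peaks with at least 20 tags (chi-square per degree of freedom 0.923 to 0.937), where every other pair of ChIP-seq libraries compared within a group gave 1.17 or more. They enter here only through the share of NCOR peaks that met their peak list.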
